A study of Mus musculus with 77 samples.

Results

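The genes described here are the crystallins Cryaa, Cryab, Cryba1, Cryba2, Cryba4, Crybb1, Crybb2 and Crygs and the beaded filament genes Bfsp1 and Bfsp2. They are 10 in number, of the 21154 genes named on the array, and were found as all probes that are not controls and whose transcript carries one of these symbols, which gave 14 of 55681 probes. Where a gene had several probes, the one brightest on average over the arrays stood for it, and the second probes of Cryaa, Cryab, Crybb1 and Crybb2 are given separately. The retinas came from 77 C57BL/6 mice, 1 array per mouse with both retinas pooled, in the model of oxygen-induced retinopathy (OIR). OIR mice breathed 75% oxygen from postnatal day 7 (P7) to P12 and room air (21% oxygen) afterwards, and control mice were kept in room air throughout. The OIR groups held 13 mice on each of the days P12, P17 and P28, and the control groups 12, 12 and 14. A mouse is named by the first part of its sample title, such as retina_65. On P12 the mice had just left the high oxygen, P17 is the time of maximal neovascularization in this model, and on P28 the new vessels have regressed. Each array also carried Universal Mouse Reference RNA, a mixture of RNA from several mouse cell lines, as the common comparison. Litters, not single pups, were assigned to oxygen or room air and the litter of a mouse is not known, so mice of one litter could not be told apart from unrelated mice and p-values rest on the spread between mice.

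Crystallins are the proteins that fill the fibre cells of the lens. The α-crystallins (Cryaa and Cryab) are small heat shock proteins that keep other proteins from clumping, and the β- and γ-crystallins share a folded motif and pack densely to give the lens its refractive power. Bfsp1 (filensin) and Bfsp2 (phakinin or CP49) are intermediate filament proteins that assemble into the beaded filament of lens fibre cells. Expression of several crystallins has also been described in the neural retina, where Cryab is made by glia and other cells under stress. The retinas were dissected free of other eye tissue, and whether RNA of lens fibres came along with a given retina was not tested. In a whole retina, fewer cells of a type and less RNA per cell cannot be told apart.

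The sample labels name Cy5 as the dye of the retina and Cy3 as that of the reference. Sag, Gnat1 and Pde6b, which rods express, were nevertheless brighter in Cy3 on all 77 arrays, by at least 4.18 on the log2 scale, so Cy3 was read as the retina and all ratios are retina over reference, opposite to the labels. The data are given as 2 ratios. The offset ratio is the log2 ratio of background-corrected signals with an offset of 50 and loess normalization within the array, where the offset pulls dim spots towards a ratio of 0. The deposited ratio is the log2 ratio as processed by the authors, with no such offset. An array had from 13764 to 34305 probes whose retina signal was well above background, and brightness differed by day, with a median of 20283 such probes in P17 OIR mice and of 32884 in P28 OIR mice. On P28 the arrays of control mice retina_65 and retina_112 stood apart, where the mean offset ratio over the 10 genes was 3.96 and 3.75 while the next control mouse reached 0.89. Among P28 OIR mice the mean ran without such a gap from 0.01 to 3.28 in mouse retina_100. The P28 values are therefore given with and without control mice retina_65 and retina_112.

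Upstream sequence is shown for 6 of the genes since their regulation in lens cells is known to run through proximal promoters. The 250 bases before the annotated transcript start were taken from RefSeq on GRCm38.p6, and the table used here held a window for 9 of the 10 genes, Cryab being the other. The windows are written 5′ to 3′ on the strand of the gene, and capitals mark TGCTGAC, a half-site of the Maf recognition element, and TATAAA, the TATA box. Both motifs were chosen after these sequences had been seen and were searched on both strands.
Cryaa (chr17:31677681-31677930, plus strand): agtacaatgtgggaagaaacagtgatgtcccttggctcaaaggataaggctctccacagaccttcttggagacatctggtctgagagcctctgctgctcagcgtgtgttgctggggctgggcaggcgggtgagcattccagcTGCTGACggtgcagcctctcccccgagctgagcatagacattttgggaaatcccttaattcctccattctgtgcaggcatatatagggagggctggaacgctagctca
Cryba1 (chr11:77725294-77725543, minus strand): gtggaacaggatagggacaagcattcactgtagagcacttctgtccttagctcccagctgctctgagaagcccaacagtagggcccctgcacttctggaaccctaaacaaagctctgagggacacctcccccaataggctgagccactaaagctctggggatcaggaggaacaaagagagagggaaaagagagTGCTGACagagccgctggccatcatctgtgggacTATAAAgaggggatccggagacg
Cryba4 (chr5:112252519-112252768, minus strand): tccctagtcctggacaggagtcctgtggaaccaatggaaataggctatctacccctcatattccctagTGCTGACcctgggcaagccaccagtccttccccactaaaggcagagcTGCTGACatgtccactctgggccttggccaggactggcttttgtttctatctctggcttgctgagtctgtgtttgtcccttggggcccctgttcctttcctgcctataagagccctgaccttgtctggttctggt
Crybb1 (chr5:112255570-112255819, plus strand): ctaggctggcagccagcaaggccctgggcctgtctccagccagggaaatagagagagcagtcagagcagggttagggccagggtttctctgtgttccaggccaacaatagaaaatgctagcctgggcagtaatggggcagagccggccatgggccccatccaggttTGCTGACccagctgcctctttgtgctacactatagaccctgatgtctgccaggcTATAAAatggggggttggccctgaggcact
Crygs (chr16:22811411-22811660, minus strand): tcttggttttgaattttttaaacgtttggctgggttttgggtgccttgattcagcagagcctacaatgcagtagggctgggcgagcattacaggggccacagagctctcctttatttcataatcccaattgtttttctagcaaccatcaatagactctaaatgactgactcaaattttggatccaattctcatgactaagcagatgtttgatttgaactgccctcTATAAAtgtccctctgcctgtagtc
Bfsp2 (chr9:103449177-103449426, minus strand): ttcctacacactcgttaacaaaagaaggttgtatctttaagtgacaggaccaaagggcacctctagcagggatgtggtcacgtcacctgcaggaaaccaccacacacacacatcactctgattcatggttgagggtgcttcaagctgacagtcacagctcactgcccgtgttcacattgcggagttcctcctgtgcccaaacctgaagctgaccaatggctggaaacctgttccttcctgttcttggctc
TGCTGAC occurred in 4 of the 9 windows (44.4%), those of Cryaa, Cryba1, Cryba4 and Crybb1, against 3.81% of all 32851 windows of this length. It began 57 bases before the start in Cryba1, 84 in Crybb1 and, for the nearer of 2 copies, 135 in Cryba4, and the copy of Cryaa lay between those of Crybb1 and Cryba4. TATAAA occurred in Cryba1, Crybb1 and Crygs, at 23, 30 and 25 bases before the start, which is 33.3% of the 9 windows against 12.4% of all windows. Neither motif was found in the window of Bfsp2, nor in those of Cryba2, Crybb2 and Bfsp1, which are not shown. A match is a match of letters, and binding was not measured. Cryba4 and Crybb1 lie on opposite strands of chromosome 5, at chr5:112246492-112263625 and chr5:112254563-112269585, and their annotated spans overlap. The other genes lie apart, with Crybb2 at chr5:113058258-113070117, Cryaa at chr17:31677931-31681730, Cryab at chr9:50745951-50756636, Cryba1 at chr11:77718614-77725293, Cryba2 at chr1:74889934-74898842, Crygs at chr16:22805203-22811410, Bfsp1 at chr2:143826528-143915219 and Bfsp2 at chr9:103424924-103480405.

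Cryab was the only one of the 10 genes that was well above background on all 77 arrays. Bfsp2 followed on 64 arrays, Cryba4 on 57, Cryaa on 49 and Crygs on 47. The other genes were measured on fewer arrays, Cryba1 on 35, Bfsp1 on 33, Crybb1 on 32, Crybb2 on 31 and Cryba2 on 29. Most of the gain came on P28, when the median mouse had all 10 genes above background in both groups. On P12 the median was 3 genes in OIR and 4.5 in control mice, and on P17 it was 2 and 4. Over the whole array the median number of probes above background rose too. From P17 to P28 it went from 20283 to 32884 in OIR and from 20843 to 32167 in control mice. P28 OIR arrays retina_18 and retina_22, with 16883 and 19022 such probes, had 5 and 3 of the 10 genes. P28 control arrays retina_75 and retina_65, with 19932 and 20728, had 1 and 10. The second probe of Cryaa, for another transcript, was well above background on 13 arrays, none of them from P12 or P17, and the second probe of Crybb2 on 21. Below background a ratio near 0 carries little of the level of the gene, and this holds for most mice of P12 and P17 for Cryba1, Cryba2, Crybb1, Crybb2 and Bfsp1.

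The α-crystallin Cryaa showed how unequal the mice were. On P12 its offset ratio had a lowest value of −0.05, a median of 0.20 and a highest value of 2.36 in OIR mice, and −0.06, 0.34 and 3.57 in control mice. On P17 the 3 values were −0.08, −0.02 and 3.05 in OIR mice and −0.07, 0.31 and 3.56 in control mice. On P28 they were −0.03, 2.67 and 3.36 against −0.11, 2.02 and 5.72. Before P28 most mice thus lay near 0 and a few lay far above, and on P28 most mice lay high and a few near 0. Crygs, the γ-crystallin that persists in the adult lens, had the same shape in the offset ratio. It ran from −0.04 over a median of 0.08 to 0.94 in P12 OIR mice, from −0.14 over 0.14 to 1.53 in P12 control mice, from −0.05 over 0.08 to 1.99 in P17 OIR mice and from −0.04 over 0.19 to 2.24 in P17 control mice. On P28 its lowest, median and highest values were 0.01, 2.20 and 4.01 in OIR mice and 0.00, 1.35 and 5.93 in control mice. In Cryba1, a β-crystallin, the medians lay between 0.02 and 0.05 in the 4 groups of P12 and P17, where 1 to 4 mice of a group were above background. They were 1.51 in P28 OIR mice, with a range from −0.01 to 4.95, and 0.61 in P28 control mice, with a range from 0.00 to 5.40.

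In the offset ratio the remaining β-crystallins were lower in spread on the early days. Over the 4 groups of P12 and P17 the highest ratio of any mouse was 0.83 for Cryba2, 0.64 for Cryba4, 0.63 for Crybb1 and 0.66 for Crybb2, each reached in a P17 control mouse. On P28 the highest ratios were 4.57 for Cryba2, 4.48 for Cryba4, 3.48 for Crybb1 and 4.54 for Crybb2, all in control mice, with group medians from 0.41 to 1.07 in OIR and from 0.16 to 0.38 in control mice. In Cryab the groups of P12 lay from −0.73 to 0.36 in OIR and from −0.41 to 0.38 in control mice, and on P28 the medians were 0.35 and 0.01 with highest values of 2.24 and 3.48. Bfsp1 had medians between 0.02 and 0.06 on P12 and P17 and on P28 of 0.21 in OIR mice and 0.14 in control mice, where the highest values were 1.61 and 4.36. Bfsp2 had medians of 0.27 and 0.24 on P12, and of 0.45 and 0.36 on P28 with highest values of 2.14 and 3.42. Its P17 values, where the groups differed, follow with the comparison.

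**Figure D1:**
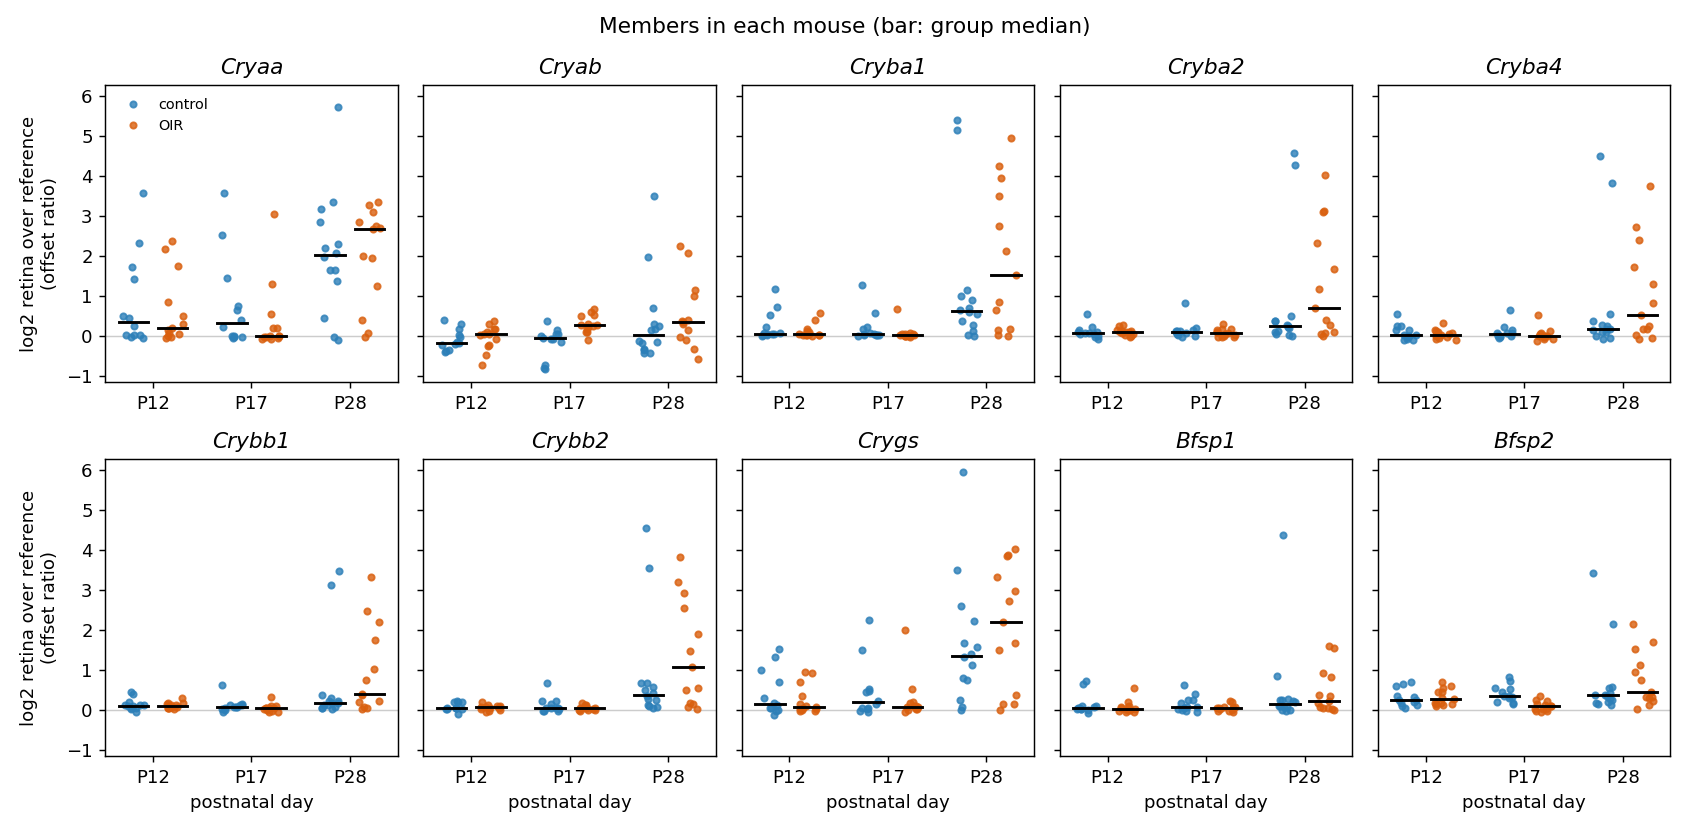
Offset ratio (log2 retina over reference) of each of the 10 genes in every mouse, by postnatal day and by group, OIR and control. Each point is 1 mouse and each bar is a group median. On P12 and P17 most points of Cryaa and Crygs lie near 0 with a few mice above 1, and on P28 the points spread up to 5.72 in Cryaa and 5.93 in Crygs.

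The first comparison asked whether these genes differed between OIR and control retinas at the time of maximal neovascularization. On P17, 1 of the 10 genes was called by limma at an adjusted p under 0.05, Bfsp2, which was lower in OIR mice, while 1.13% of all 55681 probes were called and 0.33% were lower. The offset ratio of Bfsp2 had a lowest value of −0.04, a median of 0.08 and a highest value of 0.34 in the 13 OIR mice, and 0.16, 0.34 and 0.82 in the 12 control mice. Each of the 13 OIR mice had a ratio below the median of control mice, and the groups overlapped between 0.16 and 0.34. On the log2 scale the difference was −0.31 (standard error 0.067, adjusted p = 0.0159, limma), from a mean of 0.41 ± 0.22 (SD, n = 12) in control mice to 0.10 ± 0.12 (SD, n = 13) in OIR mice. The probe was well above background in all 12 control mice and in 5 of the 13 OIR mice. In the deposited ratio, which has no offset, the fall was larger, at −1.70 (standard error 0.35, adjusted p = 0.00474, limma), where 2.64% of all probes were called. The 2 groups shared 6 slides, which held 12 OIR and 8 control mice, and the difference was negative on each, from −0.31 to −0.07 with a median of −0.28. With the slide as a block, which called 1.49% of all probes, it was −0.25 (adjusted p = 0.0233, limma), and it stayed called whichever mouse was left out, with values from −0.33 to −0.27. It was not called in a single fit over all 6 groups (adjusted p = 0.628), whose error includes the spread of P28.

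Cryab came next to the threshold on P17, in the other direction. Its offset ratio ran from −0.10 over a median of 0.28 to 0.67 in OIR mice and from −0.82 over −0.07 to 0.38 in control mice. Of the 13 OIR mice, 12 lay above the control median, and the groups overlapped. The difference was 0.47 (standard error 0.12, adjusted p = 0.0561, limma) and was not called. The difference was positive on all 6 slides that held both groups, from 0.17 to 0.90 with a median of 0.34, and it was called with the slide as a block (0.47, adjusted p = 0.0215) and in the deposited ratio (0.58, adjusted p = 0.0316). It was also called when OIR mouse retina_155 or control mouse retina_8, retina_76 or retina_146 was left out, 4 of the 25 mice of that day. The dimmer second probe of Cryab gave 0.17 (adjusted p = 0.568). The other 8 genes had negative differences on P17, from −0.39 in Cryaa to −0.06 in Cryba4, with adjusted p-values of 0.589 or more in limma. With the slide as a block 4 of the 8, Cryba1, Cryba2, Crybb2 and Crygs, had positive differences of 0.02 or less.

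No gene of the 10 was called on P12, at the end of the high oxygen, where 0.0233% of all probes were called. None had an unadjusted p under 0.05. The differences were negative in 8 of the 10 genes, and were largest in Cryaa (−0.21, standard error 0.40), Crygs (−0.17, standard error 0.18) and Cryba1 (−0.13, standard error 0.11). Bfsp2 and Cryab differed by 0.01 and 0.05. The groups overlapped in every gene, and the deposited ratio called none of the 10 either (0.07% of all probes).

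On P28, after regression of the new vessels, no gene of the 10 was called (0.0611% of all probes) and the lowest adjusted p in limma was 0.748. The differences were positive in 8 of the 10 genes with a median of 0.35, against a median of 0.00 over all probes. The largest were those of Cryba1 (0.71, standard error 0.66), Crybb2 (0.55, standard error 0.51), Cryba2 (0.50, standard error 0.55) and Crygs (0.40, standard error 0.58), and Cryaa and Bfsp1 differed by −0.02 and 0.00. The standard error was smaller than the difference in Cryba1 and Crybb2 alone. Without control mice retina_65 and retina_112, all 10 differences were positive, with 1.39 in Cryba1, 1.10 in Cryba2, 1.08 in Crybb2 and 0.40 in Cryaa, and still none was called, the lowest adjusted p being 0.660 (0.0718% of all probes called). Those 2 mice were set aside for the very ratios compared, and no OIR mouse was set aside with them. The 3 slides that held both groups had 11 OIR and 8 control mice, and Cryba1, Cryba2, Cryba4, Crybb1 and Crybb2 were higher in OIR mice on all 3, the other 5 genes on 2 of them. In the deposited ratio 6 of the 10 differences were negative on P28, among them Crygs (−0.63) and Cryba1 (−0.21), so no direction is given for that day, and none of the 10 was called in it (0.203% of all probes).

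**Figure D2:**
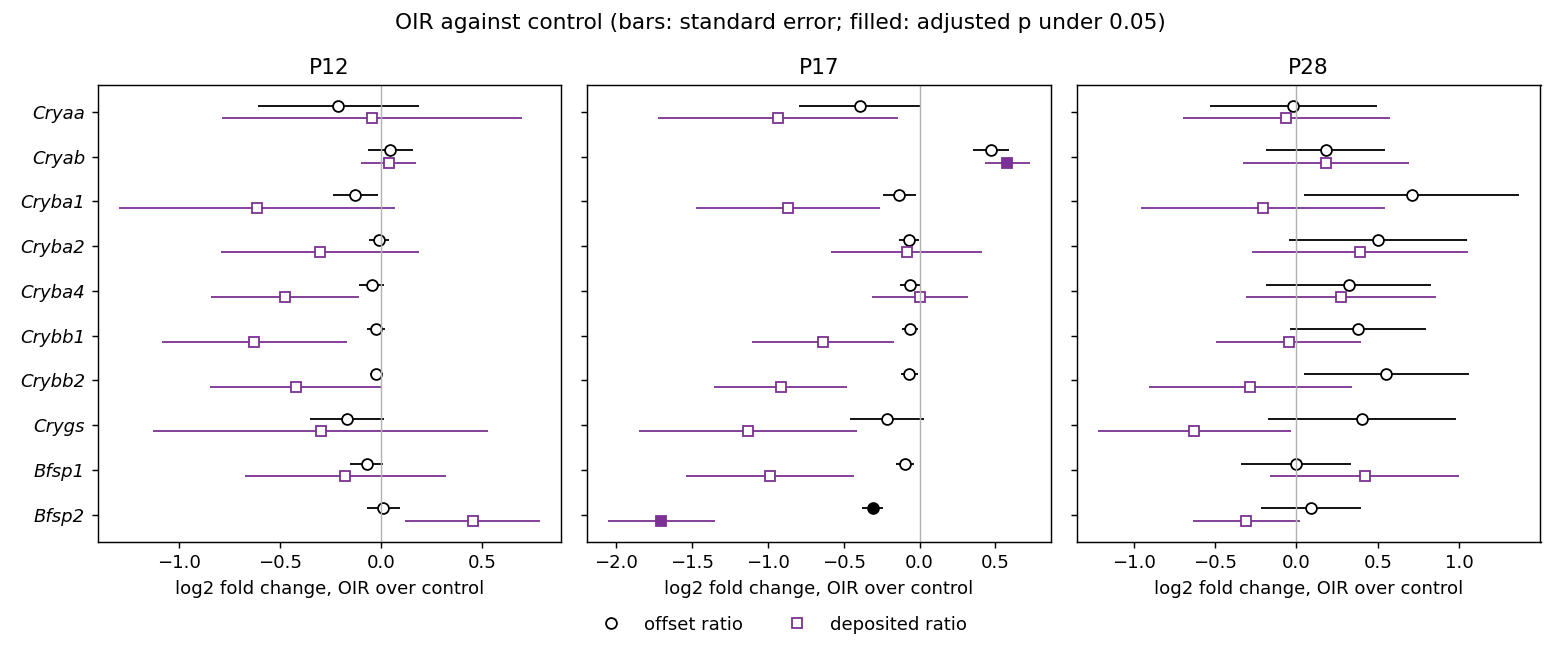
Log2 difference of OIR minus control mice on P12, P17 and P28 for each gene, in the offset ratio and in the deposited ratio, with bars of 1 standard error. Filled points have an adjusted p under 0.05 in limma. In the offset ratio only Bfsp2 on P17 (−0.31) is filled, in the deposited ratio Bfsp2 (−1.70) and Cryab (0.58) on P17.

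Whether the OIR effect changed between days was tested in one model over the 77 arrays. None of the 10 genes was called between P12 and P17 (0.48% of all probes), between P17 and P28 (0.278%) or between P12 and P28 (0.0395%). For Bfsp2 the effect on P17 minus that on P12 was −0.32 (adjusted p = 0.9998), and the effect on P28 minus that on P17 was 0.40 (adjusted p = 0.483). In the deposited ratio the first of these was −2.16 (adjusted p = 0.00495, limma) and was called (1.39% of all probes). Without control mice retina_65 and retina_112 the second was 0.75 (adjusted p = 0.0493, limma) and was called (0.242% of all probes). These mice were set aside for their high P28 ratios, and no OIR mouse was set aside with them. Their removal lowers the P28 control mean and so raises this difference by itself, and no conclusion is drawn from that call. The P17 mice enter both differences.

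The course with age was followed within each group. Between P12 and P17 no gene of the 10 was called in control mice (1.28% of all probes) or in OIR mice (3.43%). From P17 to P28 in OIR mice, 8 of the 10 genes were higher at an adjusted p under 0.05 in limma, while 40.6% of all probes were called and 21.2% were higher. The rises were 1.84 in Cryba1 (adjusted p = 0.000225), 1.81 in Crygs (adjusted p = 0.000139), 1.64 in Cryaa (adjusted p = 0.00214) and 1.37 in Crybb2 (adjusted p = 0.000259). They were 1.23 in Cryba2, 1.02 in Cryba4, 0.94 in Crybb1 and 0.66 in Bfsp2. Cryab differed by 0.24 (adjusted p = 0.481) and Bfsp1 by 0.42 (adjusted p = 0.116). The deposited ratio called 8 genes too, among 44.3% of all probes, with Bfsp1 (1.90) and without Cryaa (1.40, adjusted p = 0.114). The groups still overlapped in every gene. Some P28 OIR mice had a low mean ratio over the 10 genes, with 0.01 in retina_122, 0.05 in retina_22, 0.12 in retina_96 and 0.26 in retina_18. P17 and P28 OIR mice shared 1 slide, with 2 mice of P17 and 1 of P28, where the differences of these genes ran from −0.66 to 0.02. With the slide as a block 1 of the 10 genes was called, and 17.2% of all probes. The brightness of the arrays moved with this comparison, since 11 of the 13 P28 OIR arrays had more than 25000 probes above background and 2 of the 13 P17 OIR arrays had. The mean ratio of the 10 genes had a median of 1.32 on the 11 brighter and of 0.15 on the 2 dimmer P28 OIR arrays. It ran from 0.01 to 3.28 on the brighter and from 0.05 to 0.26 on the dimmer ones, so they overlapped. Apart from that 1 slide, age and slide cannot be told apart in OIR mice.

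In control mice 1 of the 10 genes was called from P17 to P28, Crygs, which was higher by 1.19 (standard error 0.40, adjusted p = 0.0349, limma), while 13.4% of all probes were called and 7.97% were higher. That share is near the background. Cryaa differed by 1.26 (adjusted p = 0.0504), Cryba1 by 0.997 (adjusted p = 0.104) and Crybb2 by 0.75 (adjusted p = 0.105). The call of Crygs was lost without control mice retina_65 and retina_112 (0.68, adjusted p = 0.191, with 13% of all probes called) and with the slide as a block (0.82, adjusted p = 0.217, with 14.5% called). Cryab, Bfsp1 and Bfsp2 differed by 0.53, 0.33 and 0.26, and by 0.14, −0.02 and −0.09 without these 2 mice. In control mice the 9 brighter P28 arrays had a median of the mean ratio of 0.51 and the 5 dimmer ones of 0.56.

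The spread between mice of one group is given in the offset ratio unless stated. It was wide in Cryaa and Crygs on every day and in the other genes on P28. Cryaa had a standard deviation of 0.87 in OIR and 1.17 in control mice of P12, of 0.89 and 1.17 in those of P17 and of 1.22 and 1.51 in those of P28, while the median probe had between 0.07 and 0.09 in any group. In each of the 6 groups at least 99.5% of all probes varied less than Cryaa. Crygs lay above 90.05% of probes in P12 OIR mice and above 97.2% or more in the 5 other groups. On P28 all 10 genes lay above at least 97.0% of probes. On P12 and P17 other genes spread less. Bfsp2 lay above 64.1 to 77.5% of probes, Cryba2 above 53.4 to 75.4%, Crybb1 above 50.3 to 68.0% and Bfsp1 above 53.8 to 81.4%. Crybb2 lay above 36.0% in P17 OIR, 45.4% in P12 OIR, 57.7% in P12 control and 71.2% in P17 control mice. The offset draws dim spots towards 0, and the deposited ratio gave another picture. There the standard deviation in P12 control mice was 1.99 in both Cryba1 and Cryaa. From P12 to P28 in OIR mice it fell from 1.87 to 1.42 in Cryaa and from 1.98 to 1.28 in Crygs. In Cryba2 it rose from 0.99 to 1.70. On P12 the mice high in Cryaa, with a ratio above 1.4, were OIR mice retina_113, retina_153 and retina_183 and control mice retina_82, retina_207, retina_272 and retina_282. The same 7 mice had the highest ratios of Crygs and of Cryba1 on that day. On P17 control mouse retina_146 and OIR mouse retina_123 led in all 3 genes, at 3.56 and 3.05 in Cryaa, 2.24 and 1.99 in Crygs and 1.26 and 0.67 in Cryba1. High mice occurred in both groups on every day.

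The arrays that stood apart on P28 differed from each other in the retina signal of some genes. The retina signal, a scanner intensity not normalized between arrays, was 162375 for Cryaa in control mouse retina_112, 32458.5 in control mouse retina_65 and 165019 in OIR mouse retina_100, against a median of 1600 in the 25 P28 mice other than the 2 control mice. For Crygs it was 86107, 7008 and 59949 against a median of 655.5. Bfsp1 parted them in this signal, with 26932 in mouse retina_112, 90 in mouse retina_65 and 898 in mouse retina_100 against a median of 77. For Bfsp2 the signals were 26993.5, 257 and 2269 against 194. The offset ratio of Bfsp2, which is normalized within the array, was 3.42, 2.14 and 2.14, so it did not part mouse retina_65 from mouse retina_100. The array of mouse retina_65 was one of the dimmer ones, with 20728 probes above background. Mip, the main water channel of lens fibre membranes, had 13172 in mouse retina_112, 445 in mouse retina_65 and 3637 in mouse retina_100 against a median of 43. Optc, a gene of the ciliary body, had 5312 in mouse retina_112, within the range of the 25 mice (47 to 6573). The cornea genes Krt12 and Kera, at 87.5 and 36.5, were also within the range of these mice. Of 2 pigment epithelium markers, Rpe65, at 1012.5, was above the highest other value of 501.5. Dct, at 4332, was within the range of the 25 mice (58.5 to 10551). The reference signal of Cryaa was 2437 on the array of mouse retina_112 and 1311 on that of mouse retina_65, where the median of P28 control arrays was 48. The reference channel of these spots thus moved with the retina channel, although the reference RNA was the same on every array. The part of lens tissue in these values was not tested.

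**Figure D3:**
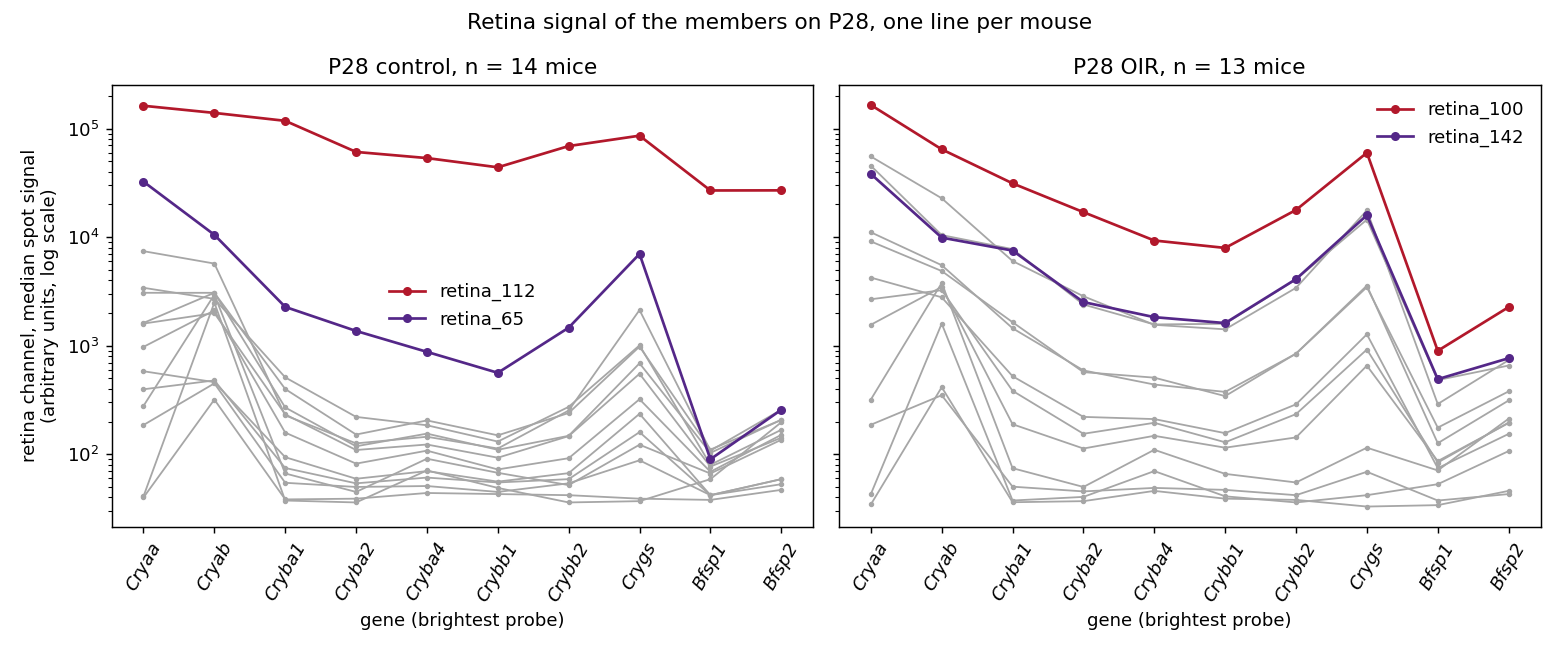
Retina signal (median spot intensity in arbitrary units, log scale, not normalized between arrays) of the 10 genes in each P28 mouse, with 1 line per mouse, OIR and control mice in separate panels and the 2 mice with the highest mean ratio of each group marked. Control mouse retina_112 lies above the other control mice in every gene, up to 162375 in Cryaa, while control mouse retina_65 falls to 90 in Bfsp1, and OIR mouse retina_100 lies at 165019 and 898 in these genes.

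The mice that were high in one gene tended to be high in the others, which was measured as the correlation between genes over the mice of one group. There are 45 pairs of genes and 6 groups, so 270 correlations were tested by permutation and adjusted together. The pairs with an adjusted p under 0.05 for Pearson's r numbered 24 in P12 OIR mice, 23 in P12 control mice, 15 in P17 OIR mice, 24 in P17 control mice, 45 in P28 OIR mice and 40 in P28 control mice, 171 in all. Of the correlations of these genes with every other probe, 9.48, 7.99, 5.98, 10, 0.661 and 0.347% reached the smallest called value in the same groups. The median r was 0.63, 0.62, 0.52, 0.70, 0.94 and 0.90 in that order. By Spearman's rho 10, 13, 1, 9, 43 and 23 pairs were called, 99 in all, and without the 2 arrays farthest from the median of the first gene 10, 16, 2, 5, 44 and 16, 93 in all. The median r without these 2 arrays was 0.38, 0.59, 0.03, 0.30, 0.94 and 0.52. It thus fell most in P17 OIR mice and changed little in P12 control and P28 OIR mice. In P17 OIR mice no pair was called by all 3 measures. In P28 OIR mice 42 pairs were. Without control mice retina_65 and retina_112, 21 of 45 pairs were called in P28 control mice and the median r was 0.42.

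Cryaa and Crygs were the pair held most widely. Their r lay between 0.95 and 0.99 in the 6 groups, and they were called by all 3 measures in 5 of them. In P28 OIR mice r was 0.96, rho 0.98 and r without the 2 farthest arrays 0.96, in P28 control mice 0.97, 0.98 and 0.93, and in P17 control mice 0.98, 0.91 and 0.90. In P17 OIR mice r was 0.97 (permutation test, adjusted p = 0.00249, n = 13) but rho was 0.41 and r without the 2 farthest arrays 0.44, neither of them called. Cryba1 and Crygs had r from 0.89 to 0.98 and Cryaa and Cryba1 from 0.80 to 0.95, both called in all 6 groups by Pearson's r. In all, 12 pairs were called in all 6 groups by Pearson's r, each of them formed within Cryaa, Cryba1, Cryba2, Cryba4, Crybb1, Crybb2 and Crygs.

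Cryab and Bfsp1 stood outside this set on the early days. Of the 9 pairs with Cryab, 1 was called in P12 OIR, none in P12 control, none in P17 OIR and 1 in P17 control mice, against 9 and 8 in P28 OIR and control mice. For Bfsp1 the called pairs numbered 1, 1, 0 and 2 in these early groups, against 9 and 5 in P28 OIR and control mice. The one negative call was between Cryab and Bfsp1 in P17 control mice (r = −0.67), where Spearman's rho and r without the 2 farthest arrays did not give a call. The median r between a crystallin and a filament gene was 0.41 in P12 OIR, 0.43 in P12 control, −0.04 in P17 OIR and 0.29 in P17 control mice, where it was 0.69, 0.84, 0.65 and 0.88 between 2 crystallins. On P28 the medians of the 2 kinds of pair were 0.94 and 0.91 in OIR mice and 0.78 and 0.91 in control mice. Bfsp1 and Bfsp2 were called together in 5 of the 6 groups, with r from 0.53 in P17 OIR mice to 0.95 in P28 OIR mice. These differences between kinds of pair were not tested, and Bfsp1 was near background in most mice of P12 and P17.

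**Figure D4:**
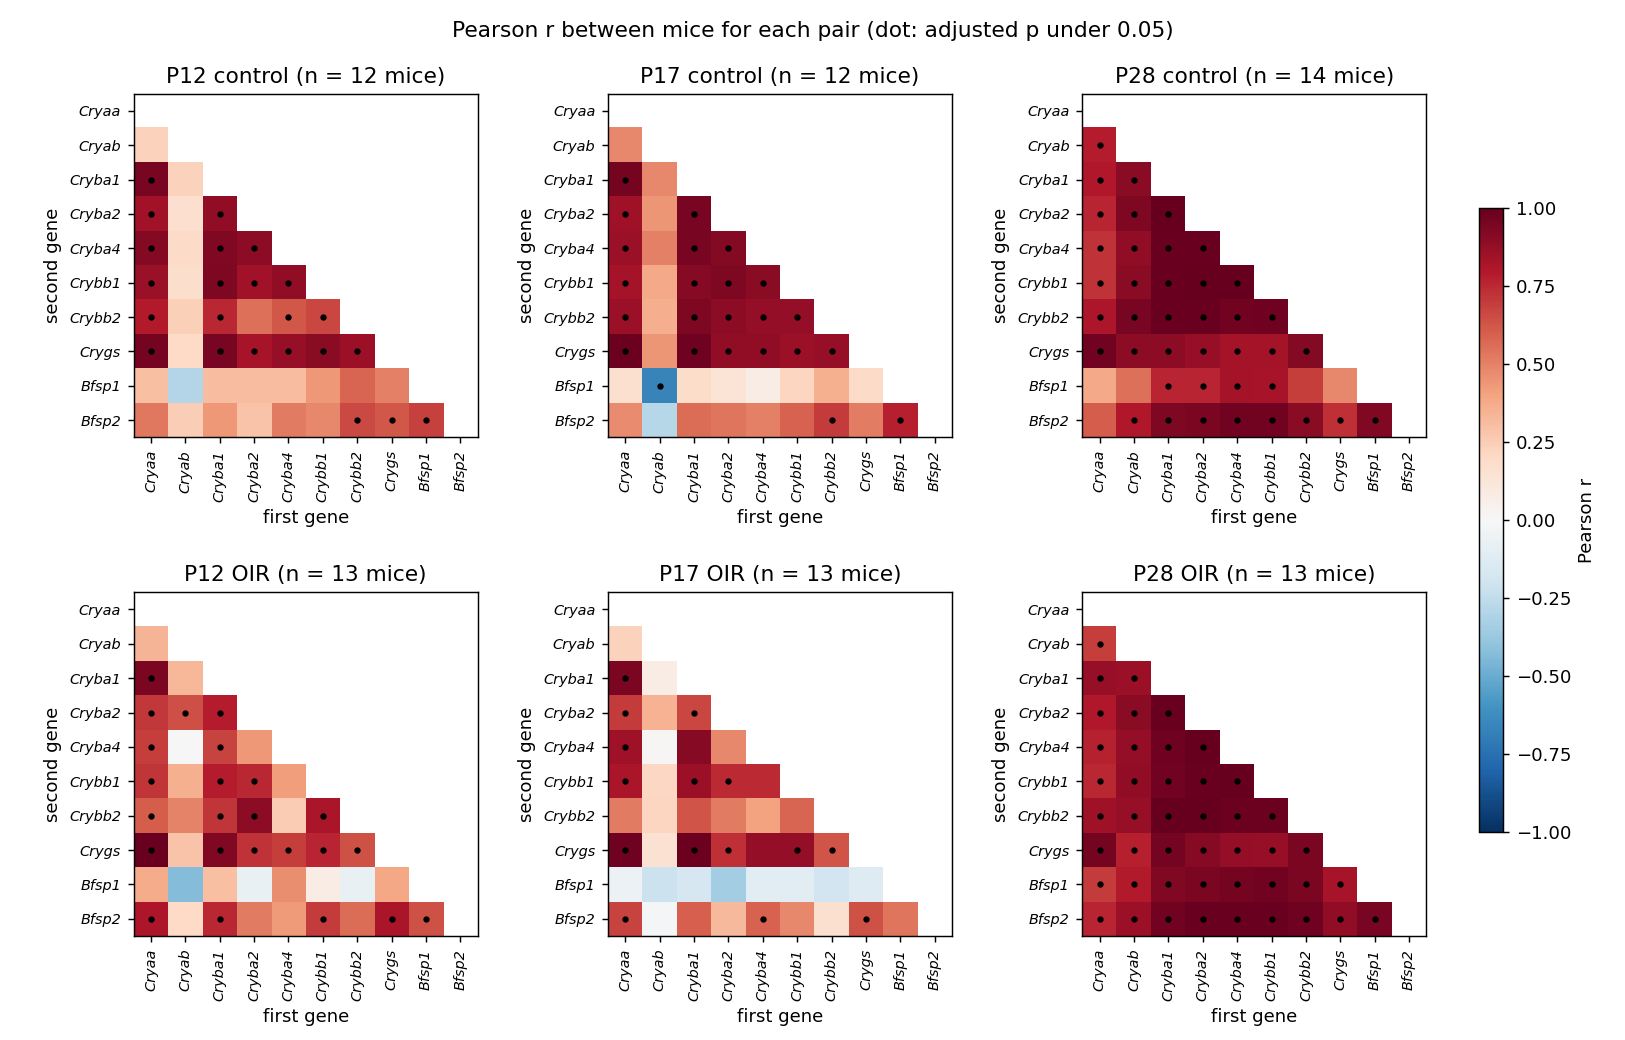
Pearson's r between the offset ratios of each pair of the 10 genes over the mice of one group, with 1 panel for each of the 6 groups. In P28 OIR mice r runs from 0.69 to 0.998 and in P17 OIR mice from −0.35 to 0.98. In the 4 groups of P12 and P17 the median r of the pairs with Cryab lies from 0.15 to 0.44, and of those with Bfsp1 from −0.13 to 0.31.

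The relation with Crygs was also set beside all other probes. An r of at least 0.8 with Crygs was reached by 3 of the other 9 genes in P12 OIR mice (0.0521% of all probes), 6 in P12 control mice (0.0952%), 4 in P17 OIR mice (0.0682%), 6 in P17 control mice (0.131%), 8 in P28 OIR mice (0.088%) and 7 in P28 control mice (0.0503%). The genes outside the 10 whose deviations from their group means were most like the mean deviation of the 10 over the 77 arrays were Crybb3 (r = 0.98), Cryga (0.92), Crygc (0.92), Crygf (0.90), Mip (0.88), Crygb (0.87), Crygd (0.87), Cryge (0.86), Crygn (0.85) and R3hdml (0.81). In all, 26 of 55681 probes (0.0467%) reached 0.8. Among them were 8 of the 10 genes themselves, while Cryaa had 0.76 and Bfsp1 0.74. Each of the 10 is part of the mean it was set against, which raises its r by itself. Arrays share their slide and brightness, so these values are a description. Mip followed the 10 genes on P28 (r = 0.92). On P12 and P17 its r was 0.10, where the γ-crystallins Cryga, Crygc and Crygd had 0.96, 0.96 and 0.97. Even on P28 the retina signal of Mip had a median of only 43 in the 25 mice other than control mice retina_65 and retina_112. Its signal on P12 and P17 is not given here, and a low r there does not show that Mip departed from the 10 genes.

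The other genes of the lens were followed in lists. Of 11 other crystallins, 14 lens fibre and membrane genes, 10 lens transcription factors, 13 heat shock genes and 4 enzymes known as taxon crystallins, none was called between OIR and control mice on P12 or P28. On P17 1 gene of these lists was called, Vim, an intermediate filament gene that is also made by retinal glia, which rose by 1.19 (adjusted p = 2.00e-08, limma). Over the 11 other crystallins the median difference was −0.08 for P12, −0.13 for P17 and 0.18 for P28, beside medians of 0.00 over all probes. With the slide as a block the P17 median was 0.03. From P17 to P28 in OIR mice, where 40.6% of all probes were called and 21.2% were higher, 7 of the 11 other crystallins were higher, led by Crygc (2.37), Cryga (1.27) and Cryge (1.16). With the slide as a block none of the 7 was called, and age and slide cannot be told apart here either. Crybg1 (−1.03) and Crybg2 (−0.77) were lower and stayed called with the slide as a block, but Crybg1 turned to 0.68 in the deposited ratio and to 0.23 in the retina channel alone. Among lists of other cells on P17, where 1.13% of all probes were called, 2 of 4 astrocyte genes rose, Gfap by 0.97 (adjusted p = 1.18e-06) and Aldh1l1 by 0.41 (adjusted p = 0.011), while the lowest difference of the list, that of S100b, was −0.29 and its median 0.20. Hba-a1, 1 of 3 red blood cell genes measured, rose by 1.38 (adjusted p = 0.00264), and Rpe65, 1 of 12 pigment epithelium genes, fell by 0.81 (adjusted p = 0.0322). Neither was called with the slide as a block (adjusted p = 0.0506 and 0.0787, limma). Of 5 ganglion cell genes, with differences from −0.77 to 0.31 and a median of −0.22, Nefl was called at −0.77 (adjusted p = 0.0481), and it was 0.15 in the deposited ratio.

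Markers of neighbouring tissue were given their levels by group. The summed retina signal of the 16 lens markers, quantile normalized between arrays, which include 8 of the 10 genes, ran from 1775 to 2999 in P12 OIR mice and from 1855 to 5261 in P12 control mice, from 1798 to 5070 and from 1546 to 4627 on P17, and from 1583 to 132831 and from 1690 to 320647 on P28. Between 2 and 12 of the 16 were well above background before P28 and up to all 16 on P28. The median ratio of the 6 ciliary body and iris markers was 0.87 in P28 OIR and 0.30 in P28 control mice, the sum running from 642 to 1742 and from 519 to 1632, and none of the 6 was called. The 12 pigment epithelium markers had medians of 0.79 and 0.55 on P28 and of 0.45 and 0.80 on P17, with Rpe65 lower in P17 OIR mice as given above. The 6 cornea markers had medians of −0.42 and −0.43 on P28. The part of these tissues in the ratios of the 10 genes was not tested. In the reference channel alone, where no retina RNA was meant to be, none of the 10 genes was called on any day, and 1, 1 and 0 of them had an unadjusted p under 0.05 on P12, P17 and P28. Those were Bfsp2 on P12 (−0.04) and Cryab on P17 (0.09). On P28 the reference difference of OIR minus control mice was 0.74 (standard error 0.66) in Cryaa and 0.31 (standard error 0.41) in Crygs, with a median of −0.02 over the 10 genes. A difference there enters the ratio of the gene.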

How the data were processed

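Retina RNA of 77 mice was measured on 2-colour Agilent 8x60K arrays, 1 array per mouse, on 11 slides. Per the file headers, the authors' scanner files hold for each spot the median and local background intensity of both channels without normalization, from Feature Extraction 10.7.3.1, and the log10 ratio that this software computed from its background-subtracted and dye-normalized signals. A second table of log2 values, deposited by the authors, gives Cy3 over Cy5 of these processed signals. The paper names GeneSpring for normalization and its settings are not given in the sources used here. A dye effect is shared by both groups, since no array had the dyes swapped.

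For the offset ratio, median signals were corrected by normexp, 50 was added as the offset and loess was run within each array (limma 3.58.1, R 4.3.3), outlier spots were dropped and the spots of a probe were averaged. Ratios of dim spots are drawn towards 0 by the offset. OIR and control mice were compared per day with limma and Benjamini-Hochberg adjustment over all 55681 probes, at a threshold of 0.05, and days in one model with 6 group means. Pairs of genes were tested by two-sided permutation with 100000 resamples (smallest p 1e-05) and adjusted over 270 tests. In simulated P17 data for 55681 probes, 78% of changes of 0.5, 98% of changes of 1 and 100% of changes of 2 on the log2 scale were recovered. The changed probes were drawn from the whole array, where the median standard deviation in P17 control mice was 0.083. Cryaa and Crygs had 1.17 and 0.70 there, so these shares do not hold for genes that spread so widely. The number of arrays limits the precision, beside signal near background. Named were all 10 genes, list genes that passed the test, and the 10 genes most like the members' mean deviation. The lists held genes of the lens, heat shock genes and markers of retinal and neighbouring cells, each gene entered with its brightest probe. The members and lists were chosen with earlier results of these data known. Alternatives changed the background correction, offset, ratio, slide, samples, array weights, variance prior, dim-probe filter, probe of a gene and correlation measure. Leaving out P28 control mice retina_65 and retina_112 and fitting 2 days alone were chosen after seeing the data. The blood arrays were not used here.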

Additional observations from a re-analysis of the deposited data

How the results depend on the processing

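The number of the 10 genes called between OIR and control mice was 0 on P12 and on P28 under every alternative run, and 0 to 0 with single mice left out. On P17 it was 1, and 2 with the scanner software's ratio, the authors' table, the retina channel alone, the slide as a block, array weights and the dim-probe filter, the second gene being Cryab. It was 0 in one fit over the 6 groups and from 1 to 2 with single mice left out. For the change of the OIR effect, 0 genes became 1 between P12 and P17 with the scanner software's ratio and the authors' table (Bfsp2), and 1 between P17 and P28 without control mice retina_65 and retina_112 (Bfsp2). From P17 to P28 in control mice, 1 gene became 2 without background subtraction, with an offset of 0 and with the dim-probe filter, 5 with the scanner software's ratio and the authors' table and 4 with array weights. It became 0 with the retina channel alone, the slide as a block, without control mice retina_65 and retina_112 and with the arrays of the 2 days alone. In OIR mice 8 genes became 1 with the slide as a block, and from P12 to P17 0 became 1 with the scanner software's ratio and the authors' table. The pairs called in P12 OIR mice went from 24 to 12 with the retina channel alone and to 39 with slide means removed, and in P17 OIR mice from 15 to 34 with slide means removed. With the authors' table they went from 24 to 15 in P17 control mice and from 45 to 22 in P28 OIR mice. With Spearman's rho there were 10, 13, 1, 9 and 23 in the groups other than P28 OIR, 99 in all, and without the 2 farthest arrays 10 in P12 OIR, 2 in P17 OIR, 5 in P17 control and 16 in P28 control mice, 93 in all. The cause was not tested. No called difference of the 10 genes changed sign. Of the list genes named, Nefl on P17 reversed to 0.15 with the scanner software's ratio and the authors' table, and Crybg1 from P17 to P28 in OIR mice to 0.68 with both and to 0.23 with the retina channel alone. On P28, where none was called, Crygs and Cryba1 turned from 0.40 and 0.71 to −0.63 and −0.21 with the authors' table. No paired analysis was possible because no mouse number occurs in more than 1 group. The limits are the brightness of the arrays, which differed between P17 and P28, and probes near background on P12 and P17.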
